A study of Mus musculus with 2 samples.

Results

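The genes described here are those of branched-chain amino acid metabolism and uptake: the transaminases Bcat1 and Bcat2, 3 subunits of the branched-chain ketoacid dehydrogenase complex (Bckdha, Bckdhb and Dbt) and the transporter pair Slc7a5 and Slc3a2. They are 7 of the 28692 genes listed in both matrices, and each symbol matched 1 row. Bcat1 was chosen by its ratio between the 2 libraries of this series, the second highest over all cells, and the other 6 were added as the known partners of its pathway. The Bcat1 difference is therefore a description and not a finding. Its values in classes, thinned cells or cells of like depth, and its balance with Bcat2, come from the same cells and are descriptions too. The question asked of the other values was whether Bcat1 moved alone.

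Droplet single-cell RNA counts were made from cultured C57BL/6 mouse bone marrow. LSK cells, the lineage-negative marrow fraction that carries Sca-1 and Kit and is enriched for stem cells and early progenitors, had been infected with a retrovirus and sorted for its GFP. The control group carried a short hairpin RNA (shRNA) that targets no mouse gene, and the knockdown group an shRNA against Cxxc5, a CXXC zinc finger gene. Both groups were cultured until day 3 in 20% serum with the myeloid growth factors GM-CSF (10 ng/ml) and SCF (10 ng/ml), and each became 1 library from 5 pooled samples. The age of the mice, the number of hairpins and the promoter of the vector are not given in the sources used here. There was thus no replicate, no p-value was computed, and every interval below is a 95% counting interval that leaves out differences between mice, infections, cultures and cells.

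The branched-chain amino acids leucine, isoleucine and valine are essential in mammals and enter cells largely through the LAT1 transporter, a heterodimer of the SLC7A5 transport subunit and the SLC3A2 (CD98) heavy chain. BCAT1 in the cytosol and BCAT2 in mitochondria pass their amino group to alpha-ketoglutarate and back, a reversible step that links them to glutamate. The dehydrogenase complex then commits the ketoacids to breakdown, with its E1 alpha and beta subunits (Bckdha, Bckdhb) and its E2 core (Dbt). BCAT1 is known to be low in most adult tissues and raised in several myeloid leukaemias.

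The knockdown library had 6004 cells after filtering, with a median of 10599 UMIs (unique molecular identifiers, each counting 1 captured molecule), and the control library 2912 cells with a median of 17197. This difference in depth per cell touches every share of cells given below. Cxxc5 itself had 9.38 UMIs per 1000000 UMIs (CPM) in the control library, and 1.16 CPM were left in the knockdown library. Kit was at 24.1 and 25.2 CPM and Ly6a, which encodes Sca-1, at 10.1 and 7.52 CPM, while 11 multipotent progenitor markers together had 133 and 130 CPM, beside 22532 and 17126 CPM of 10 early neutrophil markers, sums of different genes whose levels are not comparable with each other. The defining LSK genes Kit and Ly6a were thus detected in both libraries. The libraries shared 26 cell barcodes. Summed markers were 218 and 81.6 CPM for dendritic cells, 2428 and 1956 CPM for monocytes and macrophages and 3235 and 2774 CPM for late neutrophils, and of 8 lymphoid markers 4 (control) and 3 (knockdown) were at 0. Levels within cell classes are therefore given beside those over all cells.

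The bases before the annotated starts of the transaminase genes are shown first, because the 2 paralogues were counted as separate genes and behaved differently, and because CXXC zinc fingers as a family are known to bind unmethylated CG dinucleotides. Bcat1 lies on chromosome 6 (144993835 to 145076184, minus strand, GRCm38) and has 2 starts in RefSeq (GRCm38.p6), 27.3 kb apart. Bcat2 lies on chromosome 7 (45570153 to 45589711, plus strand). Bckdhb lies on chromosome 9 (83925145 to 84124240, plus strand), Dbt on chromosome 3 (116513070 to 116549981, plus strand), Slc7a5 on chromosome 8 (121881150 to 121907694, minus strand) and Slc3a2 on chromosome 19 (8706882 to 8723369, minus strand), all from GENCODE M21. Counts from the 3' end do not tell the starts of a gene apart. Each line gives the 150 bases before a start, 5' to 3' on the gene's strand, with CG in capitals.
Bcat1, outer start, chr6:145076158-145076307: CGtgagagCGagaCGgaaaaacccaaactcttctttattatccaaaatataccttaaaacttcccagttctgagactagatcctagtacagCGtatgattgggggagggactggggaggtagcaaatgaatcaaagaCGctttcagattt
Bcat1, inner start, chr6:145048813-145048962: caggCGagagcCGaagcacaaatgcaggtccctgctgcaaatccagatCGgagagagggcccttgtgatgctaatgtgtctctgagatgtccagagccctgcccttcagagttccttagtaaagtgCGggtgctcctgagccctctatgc
Bcat2, first start, chr7:45570003-45570152: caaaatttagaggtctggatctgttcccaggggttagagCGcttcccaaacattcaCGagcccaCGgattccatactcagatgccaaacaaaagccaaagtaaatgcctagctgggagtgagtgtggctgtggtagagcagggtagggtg
The 3 windows held 5, 4 and 3 CG dinucleotides. Over 250 bases the outer Bcat1 window had 5, the inner 9 and the Bcat2 window 7, against a median of 6 in 32851 such RefSeq windows. The letters CACGTG, an E-box bound by MYC and related factors, and TGATGNAA, the core of an ATF4 composite element, were searched on both strands. Neither was in any of the 8 windows found for 5 of the 7 members, while 6.02% and 3.45% of all windows held them. Dbt and Slc7a5 had no entry. Binding and methylation were not measured.

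Bcat1, the cytosolic transaminase, had 465 UMIs (9.44 CPM, 8.60 to 10.3) in the control library, against 1313 UMIs (20.9 CPM, 19.8 to 22.0) in the knockdown library. The knockdown level was 2.21-fold higher, a log2 ratio of 1.15 (0.99 to 1.30). The UMIs were spread thinly over many cells. In the control library 303 cells held 1 Bcat1 UMI, 53 held 2 and 16 held 3 or more, and in the knockdown library 881, 186 and 19. The 10 cells richest in Bcat1 held 8.17% of its control and 2.51% of its knockdown UMIs.

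Bcat2, the mitochondrial paralogue, had 53.5 CPM (51.5 to 55.6) with the control and 54.4 CPM (52.6 to 56.3) with the Cxxc5 hairpin. These intervals overlap, and the log2 ratio was 0.02 (-0.05 to 0.10). The balance of the 2 transaminase transcripts therefore differed between the libraries through Bcat1. There were 17.6 Bcat1 UMIs per 100 Bcat2 UMIs in the control library (15.9 to 19.5) and 38.4 in the knockdown library (36.0 to 40.9). As 3' counts are not scaled per length and capture can differ between genes, this ratio is compared between libraries only.

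Over all cells the subunits of the ketoacid dehydrogenase did not follow Bcat1. Bckdha (E1 alpha) had 28.3 CPM with the control and 23.6 CPM with the Cxxc5 hairpin, a log2 ratio of -0.26 (-0.36 to -0.15). Bckdhb (E1 beta) had 7.61 and 7.0 CPM (log2 -0.12, -0.32 to 0.08), and Dbt (E2) 13.2 and 13.8 CPM (0.07, -0.08 to 0.21). Only for Bckdha did the counting intervals of the levels not overlap, and it lay in the direction opposite to Bcat1. The 3' end of Bckdha (chromosome 7, 25629946 to 25658981, minus strand) overlaps B3gnt8 on the other strand (25626654 to 25635100). B3gnt8 had 24.5 CPM with the control and 15.4 CPM with the Cxxc5 hairpin, a log2 ratio of -0.67 (-0.80 to -0.55). Whether counting used the strand is not given in the sources used here, so the Bckdha difference is uncertain, and the part of B3gnt8 in it was not tested. The other overlaps of members had no UMI or were not among the genes counted.

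The transporter pair differed little. Slc7a5, the transport subunit, had 39.7 CPM (38.0 to 41.5) with the control and 45.0 CPM (43.3 to 46.6) with the Cxxc5 hairpin, a log2 ratio of 0.18 (0.10 to 0.26). Slc3a2, its heavy chain, had 82.8 and 86.8 CPM (0.07, 0.01 to 0.13). Slc7a5 was thus above its control interval but only 1.13-fold higher, and per 100 Slc3a2 UMIs there were 48.0 Slc7a5 UMIs with the control and 51.8 with the Cxxc5 hairpin.

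**Figure D1:**
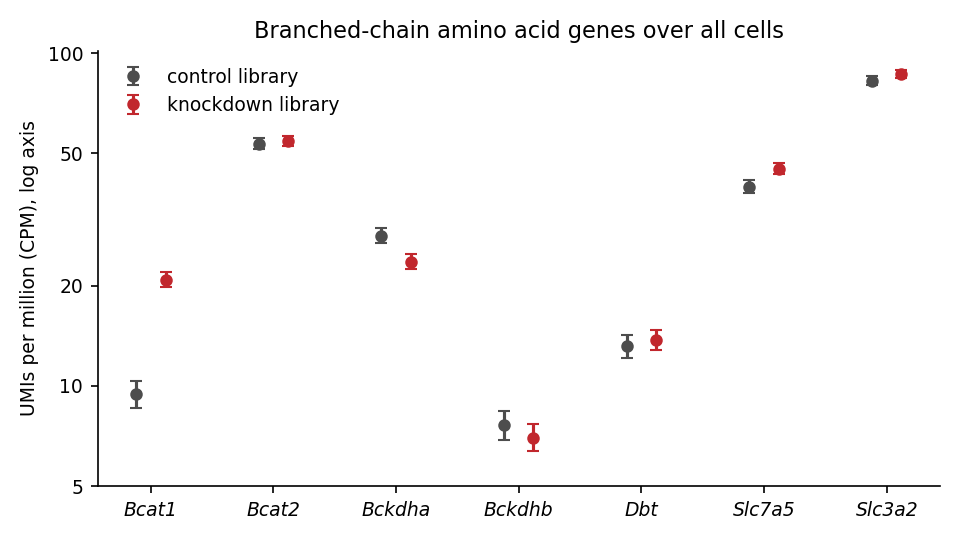
Level of each gene in UMIs per 1000000 UMIs (CPM, log axis) over all cells of the control library (grey) and the knockdown library (red), with 95% counting intervals and 1 library per group. Bcat1 is at 9.44 and 20.9 CPM, while the other 6 genes lie close together in both libraries.

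Set among all genes, with UMIs summed over all cells, Bcat1 was the only member past the fold used here. Over all cells, 8176 genes had a mean of at least 5 CPM over both libraries, all 7 members among them. Of these genes 4.20% were at least 1.2-fold higher and 5.74% at least 1.2-fold lower in the knockdown library. Of the members 1 was higher, 0 were lower and 6 were within 1.2-fold, and nothing is read from this count, since the ratio of Bcat1 chose it. Dividing by the median ratio moved the split of all genes from 343 higher and 469 lower to 237 and 611. The median log2 ratio was 0.07 over the members and 0.03 over all these genes. Bckdha lay just inside the bound, at 0.836 of its control level, and passed it on the lower side when doublet-like cells were removed (log2 -0.28), when class shares were held at those of the control (-0.27) or when ratios were divided by their median (-0.29). Slc7a5 passed it on the higher side when cells were thinned to 5000 UMIs (log2 0.28, 0.13 to 0.44) or to 3000 UMIs (0.41, 0.22 to 0.61), so whether Bcat1 alone was past the fold depended on how cells were weighted. Among 1122 genes with a mean of 12 to 18 CPM, the range in which Bcat1 lies, log2 ratios had 5th and 95th percentiles of -0.29 and 0.28, and Bcat1 was the only one at or above its own value. Its choice by the second highest ratio of all these genes nearly fixed this place, and nothing is read from it.

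**Figure D2:**
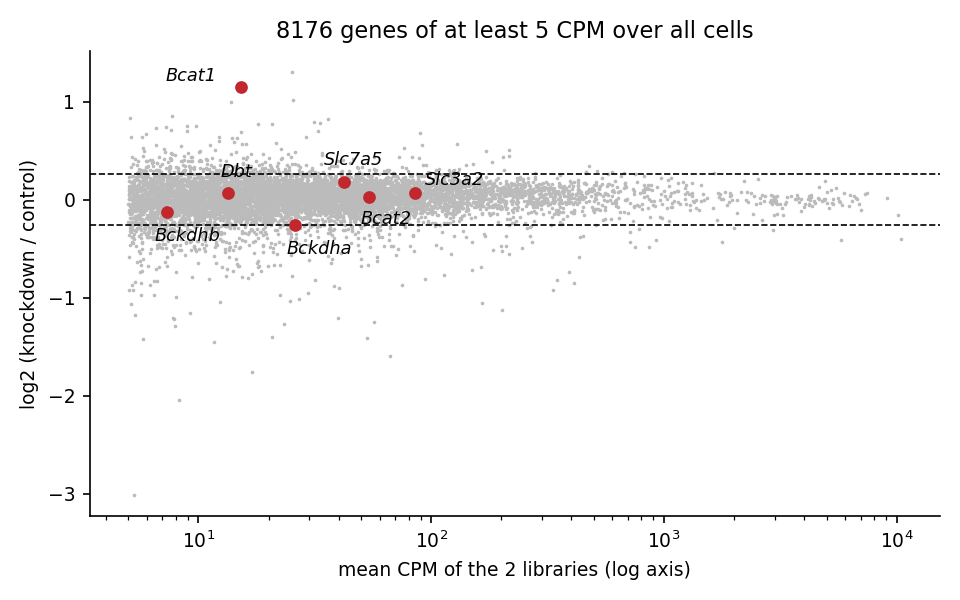
Log2 ratio of knockdown over control (y axis) against the mean CPM of both libraries (x axis, log) for 8176 genes (grey), with the 7 genes described here in red and dashed lines at 1.2-fold. Bcat1 stands at 1.15 and the other 6 lie between -0.26 and 0.18.

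To compare the shares of cells with a UMI at equal depth, 5000 UMIs were drawn from every cell that had them, leaving aside 115 control and 641 knockdown cells. Bcat1 then had a UMI in 3.75% (3.08 to 4.53%) of the control cells, while the share was 8.75% (8.0 to 9.53%) in the knockdown library. Without thinning the shares were 12.8% and 18.1%, higher in the knockdown library although its cells were shallower. No cell type known to lack Bcat1 was at hand as background. The nearest was the late neutrophil class described below, with 0.794% of thinned control and 1.59% of thinned knockdown cells, at median depths before thinning of 12240 and 8112 UMIs. For the partners, thinned shares were 20.3% and 23.3% for Bcat2, 13% and 11.6% for Bckdha, 3.4% and 3.11% for Bckdhb, 6.04% and 6.27% for Dbt, 14.7% and 18.1% for Slc7a5 and 31.5% and 34.7% for Slc3a2. The shares of Bcat1, Bcat2, Slc7a5 and Slc3a2 were higher in the knockdown library with intervals that do not overlap. The summed level of Bcat2, however, did not differ beyond counting error. The difference in the Bcat1 share follows largely from the choice of Bcat1 by its ratio. At 3000 UMIs per cell, the intervals of Bcat1 and Slc7a5 still did not overlap, while those of Slc3a2 (19.6% and 22.1%) and Bcat2 (13.8% and 14.6%) did. Thinned cells count alike whatever their depth, and deep cells weigh more in a summed level.

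To see in which cells the genes were found, cells were gated on the share of their UMIs held by marker lists that contain none of the 7 genes. The gates were taken in order: dendritic (at least 10 per 10000 UMIs), late neutrophil (50), early neutrophil (100), mast-basophil (5), progenitor (150 from granule protease and related genes such as Elane, Prtn3 and Mpo) and monocyte (15). A class cut in this way is a range of a score and not a cell type. No more than 20% above the threshold stood 229 of 1018 control and 491 of 2576 knockdown cells of the progenitor class, and 47 of 378 and 104 of 563 of the monocyte class. Other lists were also present in a class. Early neutrophil-gated cells had a median of 304 and 325 progenitor-list UMIs per 10000, more than the 218 and 228 of the progenitor class. Comparison was limited to the 5 classes of 100 or more cells per library, while the dendritic class, with 64 and 65 cells, and the 416 control and 991 knockdown cells in no gate are given as levels.

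In both libraries Bcat1 was lowest in the late neutrophil class and highest in ungated cells. In the control library its level was 16.3 CPM in ungated cells (13.4 to 19.7), 12.7 in the monocyte class (10.2 to 15.7) and 11.2 in the progenitor class (9.75 to 12.8). It was 6.95 CPM in the mast-basophil class (4.18 to 10.9), 3.77 in the early neutrophil class (2.52 to 5.41) and 0.954 in the late neutrophil class (0.310 to 2.23). Neighbours in this order overlap in their intervals, except the early and late neutrophil classes. The dendritic class held 2 control and 6 knockdown Bcat1 UMIs, too few to place it. The knockdown library had 32.2 CPM in ungated cells, 23.7 in the progenitor class, 22.3 in the monocyte class, 14.0 in the mast-basophil class, 10.7 in the early neutrophil class and 3.64 in the late neutrophil class. The order was the same but for the progenitor and monocyte classes, whose intervals overlap in both libraries.

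**Figure D3:**
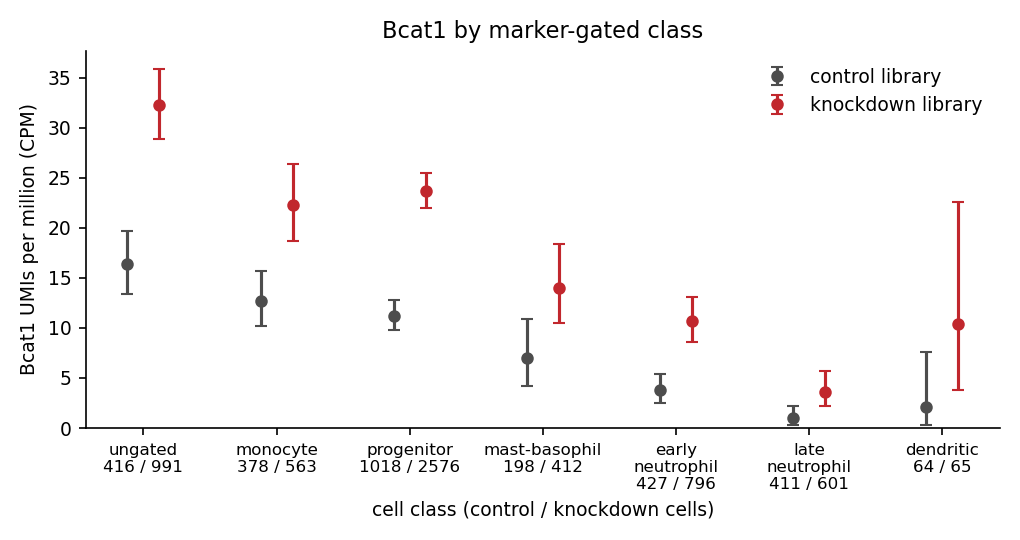
Bcat1 level in UMIs per 1000000 UMIs (CPM) in each marker-gated class and in ungated cells of the control (grey) and knockdown (red) library, with 95% counting intervals and the numbers of cells under each class. The knockdown value is above the control value in every class, from 0.954 and 3.64 CPM in the late neutrophil class to 16.3 and 32.2 CPM in ungated cells, and the dendritic class rests on 2 and 6 UMIs.

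With UMIs summed over cells, the Bcat1 difference was present in each of the 5 compared classes, with the whole counting interval above 0. The log2 ratio was 1.08 in the progenitor class (0.86 to 1.31, 216 and 682 UMIs) and 0.81 in the monocyte class (0.41 to 1.22, 85 and 135 UMIs). It was 1.5 in the early neutrophil class (0.88 to 2.16, 29 and 91 UMIs), 1.01 in the mast-basophil class (0.23 to 1.85, 19 and 53 UMIs) and 1.93 in the late neutrophil class (0.45 to 3.72), which rests on 5 and 18 UMIs. Ungated cells gave 0.98 (0.66 to 1.31). All these intervals overlap, and whether the difference varies between classes was not tested. With class shares of the control library the log2 ratio over all cells was 1.06. The progenitor class held 35.0% of control and 42.9% of knockdown cells and the late neutrophil class 14.1% and 10.0%. In cells thinned to 5000 UMIs, the share with a Bcat1 UMI was higher in the knockdown library in each class. Its intervals were apart in the progenitor class (3.13 to 5.74% and 8.61 to 11.0%) and in ungated cells. They overlapped in the other compared classes, narrowly in the monocyte class (2.58 to 7.16% and 7.10 to 12.5%). The overlap was also narrow in the mast-basophil class (0.34 to 4.67% and 4.44 to 10.2%), on 3 control and 23 knockdown cells with a UMI.

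Among the partners, only Slc7a5 was also above 0 in all 5 classes, by smaller amounts. Bcat2 log2 ratios ran from -0.05 in the late neutrophil class to 0.27 in the mast-basophil class, Dbt from -0.37 to 0.35 and Slc3a2 from -0.11 to 0.19. Bcat2 and Dbt had 0 of 5 intervals away from 0, and Slc3a2 had 1, in the early neutrophil class. Bckdhb was above 0 in 3 and below 0 in 2 classes, with 1 interval away from 0, in the progenitor class (-0.30, -0.59 to -0.002). Bckdha was below 0 in 4 of 5 classes, and its lowest value was in the mast-basophil class, at 53.0 CPM with the control and 32.0 CPM with the Cxxc5 hairpin (log2 -0.73, -1.09 to -0.37). B3gnt8, which overlaps it, was at 23.8 and 17.7 CPM there.

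Slc7a5 was above 0 in all 5 classes, by 0.08 in the progenitor class (-0.04 to 0.22), 0.22 in the monocyte class (0.02 to 0.42), 0.33 in the mast-basophil class (-0.03 to 0.70), 0.45 in the late neutrophil class (-0.26 to 1.18) and 0.62 in the early neutrophil class (0.31 to 0.93). In the early neutrophil class its level was 17.9 CPM in the control (15.1 to 21.2) and 27.5 CPM in the knockdown library (24.1 to 31.3). Its levels over the classes of the control library followed the same order as those of Bcat1 among the monocyte, progenitor, mast-basophil, early and late neutrophil classes, from 59.6 to 5.92 CPM. The range of Slc3a2 over these classes was narrower, from 95.1 CPM in the mast-basophil class to 58.0 CPM in the late neutrophil class. In the late neutrophil class there were 10.2 (control) and 14.2 (knockdown) Slc7a5 UMIs per 100 Slc3a2 UMIs, against 64.8 and 81.0 in the monocyte class.

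**Figure D4:**
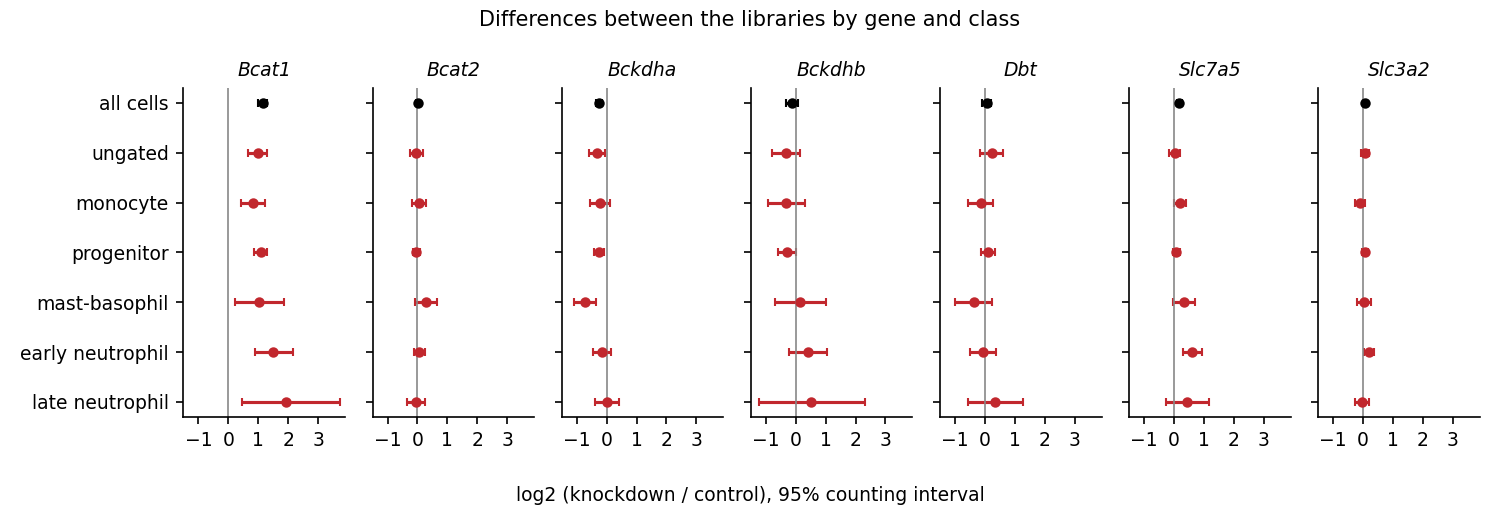
Log2 ratio of knockdown over control (x axis) of each gene over all cells (black) and in ungated cells and 5 gated classes (red), with 95% counting intervals. Bcat1 lies above 0 in every row, from 0.81 in the monocyte to 1.93 in the late neutrophil class, Slc7a5 lies above 0 in every row, up to 0.62 in the early neutrophil class, Bckdha lies below 0 in all rows but the late neutrophil class, down to -0.73 in the mast-basophil class, and the other 4 genes have rows on both sides of 0.

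Within classes a bound of 1.5-fold was read, among genes with a class mean of at least 10 CPM. In the progenitor class 0.985% of genes were past it in either direction, and of 6 members measured there Bcat1 was. In the monocyte class the share was 1.59%, and of 6 members Bcat1 was past it. In the mast-basophil class it was 4.99%, and of 6 members Bcat1 was higher and Bckdha lower. In the early neutrophil class it was 1.77%, and of 5 members Slc7a5 was higher, while Bcat1 did not reach the minimum. In the late neutrophil class it was 4.20%, and 0 of 3 members were past it, with Bcat1 again under the minimum. Nothing is read from these counts, since Bcat1 was chosen by its ratio in the same cells.

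The transaminase balance also differed within classes. Per 100 Bcat2 UMIs the progenitor class had 17.8 Bcat1 UMIs with the control and 38.6 with the Cxxc5 hairpin, with values of 27.2 and 45.6 in the monocyte class, 6.0 and 16.2 in the early neutrophil class and 37.6 and 76.3 in ungated cells. The intervals of the control and knockdown values did not overlap in any of these 4, although they nearly touched in the monocyte class, at 34.6 and 36.9. They overlapped in the mast-basophil class (19 and 31.7) and in the late neutrophil class (2.55 and 10.1). A higher balance in the knockdown library follows largely from the choice of Bcat1 by its ratio, and nothing is read from it.

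Depth and proliferation were set beside the Bcat1 difference. When each library's cells were put in 4 groups of equal size by their UMIs, Bcat1 log2 ratios were 0.84, 1.92, 1.19 and 1.05 from the shallowest to the deepest group, each with an interval above 0. Slc7a5 gave -0.25, 0.47, 0.27 and 0.16 and Bcat2 0.19, 0.27, 0.07 and -0.12 over the same groups, so the point values of both were on either side of 0. The negative Slc7a5 value, in the shallowest group, had an interval that includes 0 (-0.53 to 0.03). Its other intervals lay above 0 (0.25 to 0.69, 0.12 to 0.43 and 0.04 to 0.28). The Bcat2 interval was above 0 in the second group (0.10 to 0.44) and just below it in the deepest (-0.24 to -0.01). Bckdha gave 0.09, -0.37, -0.36 and -0.24, with intervals below 0 from the second group on. Slc3a2 intervals were above 0 in the shallowest and second groups (0.20 and 0.16). Bckdhb was at 0.65 (0.10 to 1.22) in the second group and -0.31 (-0.61 to -0.01) in the deepest. All Dbt intervals included 0. Whether these differences vary with depth was not tested. When the cells of both libraries were put in 3 groups of equal size by the share of UMIs from 14 proliferation genes, Bcat1 had 8.75 and 17.7 CPM in the lowest group, 9.0 and 22.4 in the middle and 10.5 and 21.6 in the highest. Its difference was thus similar in size in cells with few and with many proliferation transcripts, with log2 ratios of 1.02, 1.31 and 1.05.

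Detection of Bcat1 and of its partners in the same cells was read in cells thinned to 5000 UMIs. In the knockdown library a Slc7a5 UMI was found in 26% of cells with a Bcat1 UMI (22.1 to 30.2%, 469 cells) and 17.4% of cells without one (16.3 to 18.5%). In the control library the shares were 18.1% (11.3 to 26.8%, 105 cells) and 14.5%, with overlapping intervals. For Bcat2 they were 33.3% (24.4 to 43.2%) and 19.8% (18.3 to 21.4%) with the control hairpin, and 23.5% and 23.3% in the knockdown library. Classes are mixed in these shares, and whether the libraries differ in them was not tested.

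Other genes of the pathway were taken from 6 lists with 82 genes in all, of which 67 had a mean of at least 5 CPM. Of these, 4 were at least 1.2-fold higher, 2 lower and 61 within that bound, with a median log2 ratio of 0.03. Over all 8176 genes of at least 5 CPM, 4.20% were higher and 5.74% lower. Nothing is read from the counts of these lists, in all or list by list. None of the 67 reached the ratio of Bcat1, which follows largely from the choice of Bcat1 by that ratio. Of the partners of the dehydrogenase complex, 0 of 2 measured genes were past the bound. Dld, its E3 subunit, was at 0.10 and Bckdk, the kinase that inactivates the complex, at -0.03. Of 16 genes of the later breakdown of the acyl-CoA products, 1 was higher and 0 lower (median -0.01). The higher one was Mccc2, at 5.34 and 6.55 CPM (log2 0.30, 0.07 to 0.52). Mccc1, the other subunit of methylcrotonyl-CoA carboxylase in leucine breakdown, was at 0.21 and Acat1 at -0.14.

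Among 9 measured amino acid transporters 0 were higher and 2 lower, with a median of 0.11. Slc7a11, the cystine-glutamate exchanger, had 8.38 CPM with the control and 5.22 CPM with the Cxxc5 hairpin (log2 -0.68, -0.90 to -0.47). Slc7a8 (LAT2) had 5.64 and 4.39 CPM (-0.36, -0.61 to -0.12). Slc7a6 was at 0.22 and the cationic amino acid transporter gene Slc7a1 at 0.20. Of 22 genes of leucine sensing and mTORC1 signalling 1 was higher and 0 lower (median 0.01). That gene was Depdc5, a subunit of the GATOR1 complex that restrains mTORC1, at 5.54 and 6.82 CPM (0.30), and Wdr24 was at 0.21, Sesn1 at -0.19 and Rragc at -0.17.

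Of 9 genes of transamination and glutamate metabolism 1 was higher and 0 lower, with a median of 0.14. Got1, the cytosolic aspartate transaminase, had 25.4 and 32.5 CPM (log2 0.35, 0.25 to 0.46), and its mitochondrial counterpart Got2 100.6 and 120.5 CPM (0.26), just inside the bound. Psat1 was at 0.20 and Gpt2 at 0.19. Of 11 measured genes linked to ATF4, the transcription factor of the amino acid stress response, 1 was higher and 1 lower (median 0.15). The higher was Ddit3, at 5.34 and 7.08 CPM (0.41, 0.18 to 0.63), the lower was Slc7a11, which is in both lists, and Aars was at 0.21 and Asns at 0.20.

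The genes beside Bcat1 on chromosome 6 were read in the same way. On its upstream side Lrmp, 39.5 kb away, had 58.7 and 55.8 CPM (log2 -0.07) and Etfrf1 12.7 and 11.8 CPM (-0.12). On the other side the nearest genes of at least 5 CPM were 1762 kb or more away, Etnk1 at 0.31, C2cd5 at -0.04 and Cmas at -0.01. None of these 5 genes approached the Bcat1 ratio, which follows largely from the choice of Bcat1 by that ratio.

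The genes whose levels were most like those of Bcat1 were sought among 6619 genes of at least 10 CPM, by the Pearson correlation of log2(CPM + 1) over 12 values, 5 classes and the ungated cells in each library. The 5 nearest were Ptges3, Zc3h13, D030056L22Rik, Ddx3x and Ppp2r1b, with r between 0.97 and 0.98. Their log2 ratios over all cells were 0.51, 0.39, 0.30, 0.38 and 0.37. Over the 6 values of the control library alone the nearest were Ppm1g, Ung, Ssbp1, Anapc1 and Rbm17, with r from 0.9978 to 0.9998. Each was within 0.10 of 0 in its log2 ratio over all cells. Among the members, r over the 12 values was 0.92 for Slc7a5, 0.83 for Slc3a2, 0.82 for Dbt and for Bckdhb, 0.29 for Bcat2 and 0.08 for Bckdha. High r was common, as among the 6619 genes Slc7a5 ranked 326, Slc3a2 1689 and Dbt 1814. Bcat2 ranked 4514 and Bckdha 4872, and Bckdhb was not among the ranked genes. The values of 1 library share its depth, and low values in late neutrophils weigh heavily, so the correlations describe these values only. With both libraries among the 12 values, a gene like Bcat1 is also likely to be higher in the knockdown library, and the ratios of the 5 nearest were in part fixed by that choice.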

How the data were processed

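UMI counts per gene and cell barcode were deposited by the authors as 2 matrices, where the submitters' processing notes name Cell Ranger 2.1.1 and mm10, from 10x Genomics 3' version 2 libraries per the labels' protocols. The annotation release and the strand setting are not given in the sources used here. Positions came from GENCODE M21 (GRCm38) by Ensembl identifier. Cells with at least 500 genes and at most 10% mitochondrial UMIs were kept, which removed 24 of 8940 barcodes. Scrublet through scanpy 1.11.5 called 1 control and 6 knockdown cells, which is too low a yield to use, so no cell was removed as a doublet (the 68 and 288 highest-scoring cells were removed as an alternative). Counts were summed over cells and divided by all UMIs of those cells. Level and ratio intervals are exact Poisson and binomial, shares Clopper-Pearson, all at 95%. Thresholds of gates and depth ranges were set after the data were seen, and the markers and lists were written with earlier results of these data known, as were the members. Named genes were the members, up to 4 per list by size of ratio, 3 neighbours on each side and the 5 most like Bcat1, over both libraries and over the control alone; some of the genes so chosen are not reported here. The ratio code was tested on simulated counts. No p-value was computed.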

Additional observations from a re-analysis of the deposited data

How the results depend on the processing

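No paired analysis was possible because each group had 1 library and no test was made. For the same reason no replicate could be left out. Over 8 other ways of taking the cells or scaling the counts (all barcodes, doublet-like cells removed, division by the median ratio, thinning, equal weight per cell, class shares of the control, no cells richest in the gene, and, chosen after seeing the data, no barcodes found in both libraries), the Bcat1 log2 ratio over all cells ran from 1.06 to 1.25. Thinning to 5000 UMIs moved Slc7a5 from 0.18 to 0.28, Bcat2 from 0.02 to 0.21 and Slc3a2 from 0.07 to 0.17. Bcat1 was at least 1.2-fold higher in 5 classes with thresholds doubled or at 0.5 of those used, and in 6 Leiden clusters. A further cluster, of late neutrophil-gated cells, had no Bcat1 UMI in either library. With thresholds doubled the monocyte class gave 1.38 in place of 0.81, and the late neutrophil class 3.69 (0.96 to 9.10) on 1 control UMI. The number of members past 1.2-fold was 0 at a minimum of 20 CPM, which leaves out Bcat1, and 2 after division by the median ratio (log2 0.03), which adds Bckdha. Genes past the fold, higher and lower, numbered 1841 and 3064 of 14626 with no minimum, 130 and 173 of 4684 at 20 CPM, and 29 and 91 of 8176 with the fold at 1.5, against 343 and 469. At 3000 UMIs per cell the Bcat1 share was 3.82 percentage points higher in the knockdown library, against 4.99 at 5000, and that of Bcat2 0.84 against 2.96. Without thinning, the shares of cells with a UMI were lower in the shallower knockdown library, by -11.3 percentage points for Bcat2, -7.17 for Slc7a5 and -10.01 for Slc3a2. Bcat1 and Bckdhb had fewer than 20 UMIs per library in the late neutrophil and dendritic classes, which limits their ratios there. The Bcat1 ratio of the mast-basophil class, with 19 control UMIs, is limited in the same way.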

Other observations

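At equal UMI counts per cell, rather than equal ranks within a library, the members gave other values, and cells of a given depth were of different classes in the 2 libraries. The part of this class mix in the values was not tested. Of cells with 12000 to 18000 UMIs, 21.4% of control and 3.66% of knockdown cells were in the late neutrophil class, and 28.6% and 49.1% in the progenitor class. In this range Bcat1 had 4.71 CPM in 654 control cells and 25.8 CPM in 1887 knockdown cells (log2 2.45, 2.02 to 2.91). Slc7a5 had 27.1 and 52.4 CPM there (0.95, 0.76 to 1.15) and Bckdha 34.2 and 21.8 CPM (-0.65, -0.84 to -0.45). Bckdhb was at 0.67 (0.21 to 1.15), Dbt at 0.40 (0.10 to 0.72) and Slc3a2 at 0.37 (0.25 to 0.49), all higher in the knockdown library, and Bcat2 at 0.13 (-0.02 to 0.28). Between 8000 and 12000 UMIs, Bcat2 had 31.2 and 58.0 CPM (0.89, 0.63 to 1.16), Slc3a2 65.8 and 82.4 CPM (0.33, 0.14 to 0.51) and Bcat1 6.24 and 18.3 CPM (1.55, 0.98 to 2.18). Bckdha was at -0.31 there (-0.58 to -0.03), while the intervals of Slc7a5, Bckdhb and Dbt included 0. Within these ranges some of the partners thus also differed between the libraries. Below 8000 UMIs, Slc3a2 alone among the partners had an interval away from 0 (0.28, 0.04 to 0.53). Slc7a5 was at -0.22 in those cells (-0.55 to 0.13). In cells of 18000 UMIs or more Bcat1 had 11.7 and 23.6 CPM (1.01, 0.65 to 1.35). Of the partners, only Bckdha (-0.60, -0.99 to -0.23) and Slc7a5 (0.23, 0.01 to 0.45) had intervals away from 0 in those cells.

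B3gnt8, a glycosyltransferase gene that overlaps the 3' end of Bckdha on the other strand, was lower in the knockdown library in all 5 compared classes. Its log2 ratio was -0.78 in the progenitor, -0.94 in the monocyte, -0.73 in the late neutrophil, -0.42 in the mast-basophil and -0.36 in the early neutrophil class. Bckdha was at -0.27, -0.22, 0.02, -0.73 and -0.15 in the same classes. This gene was chosen after its values were seen.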
